A study of Saccharomyces cerevisiae with 15 samples.

Results

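The glycine cleavage and one-carbon folate genes of budding yeast are described here as 9 genes, chosen by name out of the 6600 gene identifiers of the deposited table. They are the subunits of the glycine cleavage system, GCV1 (YDR019C), GCV2 (YMR189W), GCV3 (YAL044C) and LPD1 (YFL018C), the serine hydroxymethyltransferases SHM1 (YBR263W) and SHM2 (YLR058C), and the enzymes that interconvert folate-bound one-carbon units, MTD1 (YKR080W), ADE3 (YGR204W) and MIS1 (YBR084W). The list was drawn up with the levels of these genes in these libraries known, so their levels and differences are given as a description, without a p-value. All 9 passed the filter on low values, an average of 10 or more normalized counts across libraries, as did 5567 genes in all.

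Saccharomyces cerevisiae strain BY4741, a haploid laboratory strain of mating type a that lacks HIS3, LEU2, MET17 and URA3, was grown in yeast nitrogen base with β-glycerophosphate as a phosphate ester. Over 1 h, cells received lanthanum (La, from the light rare earths) at 50 µM or 160 µM, ytterbium (Yb, from the heavy ones) at 6 µM or 8 µM, or no metal, and each of the 5 groups had 3 RNA libraries. The labels call the lower dose of each metal its EC10 and the higher its EC50, so La and Yb are matched by effect level and not by concentration. The question was how the response differs between a light and a heavy member of the rare earths. Whether the 3 libraries of a group are separate cultures is not given by the labels, and every p-value below therefore speaks of sample-to-sample spread alone, possibly of technical origin. Libraries are named by group and by the running number of their column, since the columns carry no replicate number of the labels.

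The glycine cleavage system is a mitochondrial enzyme complex that breaks glycine into carbon dioxide, ammonia and a one-carbon unit carried by tetrahydrofolate. Serine hydroxymethyltransferase moves a one-carbon unit between serine and glycine, with one isozyme in the cytosol and one in mitochondria. Folate-bound one-carbon units feed the synthesis of purines, of methionine and of thymidylate, and in yeast the GCV genes are known to respond to glycine, while several genes of one-carbon metabolism are known targets of Bas1, the transcription factor of purine synthesis.

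Promoter stretches of 8 of the 9 members are shown, most of which carry short sequences associated with Bas1 and Gcn4 or with glycine. MIS1, which is not shown, holds no TGACTC in the windows searched and was lower than control in every exposed group. Whether these sequences have a part in the levels was not tested. Each run of 200 bases is read 5′ to 3′ on the strand of the gene, from 300 to 101 bases before the start codon, in the RefSeq genome of build R64, and for GCV3 the 30 bases around its sites are given. Capitals mark TGACTC on either strand (it reads GAGTCA where it lies on the opposite strand), the core bound by Bas1 and Gcn4, and matches to the glycine response element described in the GCV genes, which is CATC followed after 7 bases by CTTCTT. The stretches lie at chrXII:259502-259701 on the minus strand for SHM2, chrXIII:637200-637399 on the plus strand for GCV2, chrIV:485466-485665 on the minus strand for GCV1 and chrI:58551-58580 on the minus strand for GCV3. Those of MTD1, ADE3 and SHM1 lie on the plus strand at chrXI:590095-590294, chrVII:905634-905833 and chrII:735964-736163, and that of LPD1 on the minus strand at chrVI:103228-103427.
SHM2: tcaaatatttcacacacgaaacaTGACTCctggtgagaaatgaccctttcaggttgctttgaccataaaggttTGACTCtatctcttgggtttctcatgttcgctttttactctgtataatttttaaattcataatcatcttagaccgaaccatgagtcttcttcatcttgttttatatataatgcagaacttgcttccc
GCV2: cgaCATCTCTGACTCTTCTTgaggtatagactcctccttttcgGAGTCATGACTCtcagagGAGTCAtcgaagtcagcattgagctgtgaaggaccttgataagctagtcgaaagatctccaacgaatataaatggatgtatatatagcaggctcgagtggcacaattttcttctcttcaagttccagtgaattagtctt
GCV1: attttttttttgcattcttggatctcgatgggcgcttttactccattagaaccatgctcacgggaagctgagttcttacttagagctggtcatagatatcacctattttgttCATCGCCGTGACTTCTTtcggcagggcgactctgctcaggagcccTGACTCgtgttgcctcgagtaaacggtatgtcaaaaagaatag
GCV3: gtaagGAGTCAttcagcggcgGAGTCActt
MTD1: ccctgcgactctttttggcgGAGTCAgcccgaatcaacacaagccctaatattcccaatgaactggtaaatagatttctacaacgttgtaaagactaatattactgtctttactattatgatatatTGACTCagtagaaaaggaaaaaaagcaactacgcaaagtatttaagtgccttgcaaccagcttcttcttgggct
ADE3: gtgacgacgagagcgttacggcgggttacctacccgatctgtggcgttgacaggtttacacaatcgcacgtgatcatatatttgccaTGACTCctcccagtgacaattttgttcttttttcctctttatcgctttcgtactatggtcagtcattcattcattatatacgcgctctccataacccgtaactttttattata
LPD1: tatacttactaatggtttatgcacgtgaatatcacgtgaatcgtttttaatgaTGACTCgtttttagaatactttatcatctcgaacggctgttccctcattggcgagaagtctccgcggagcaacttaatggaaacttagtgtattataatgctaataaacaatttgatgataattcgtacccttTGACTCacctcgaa
SHM1: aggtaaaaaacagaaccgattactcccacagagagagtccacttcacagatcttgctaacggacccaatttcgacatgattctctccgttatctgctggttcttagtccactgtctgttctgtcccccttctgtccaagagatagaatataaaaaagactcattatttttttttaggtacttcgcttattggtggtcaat

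In the window from 250 bases before to 50 bases after the start codon, searched on both strands, 7 of the 9 members held TGACTC, against 7.96% of 6020 promoters of the same length. SHM1 and MIS1 were the members without it in this window. The longer TGACTCA, which overlaps it, was found in LPD1 and MTD1 (2 members, against 2.72% of promoters). CTTCTT, the core of the glycine response element, was found in 3 members, against 35.9% of promoters. The whole glycine response element was found in GCV1 alone among members, against 0.133% of promoters. In a window of 500 bases before the start codon, chosen after seeing the data, the same count of 7 members held TGACTC, against 12.6% of promoters, and 5 members held it more than once, against 1.43% of promoters. In that window GCV1 and GCV2 held the glycine response element, against 0.366% of promoters, and in GCV2 it overlaps a TGACTC. A match is a description of the letters and not of a bound site.

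**Figure D1:**
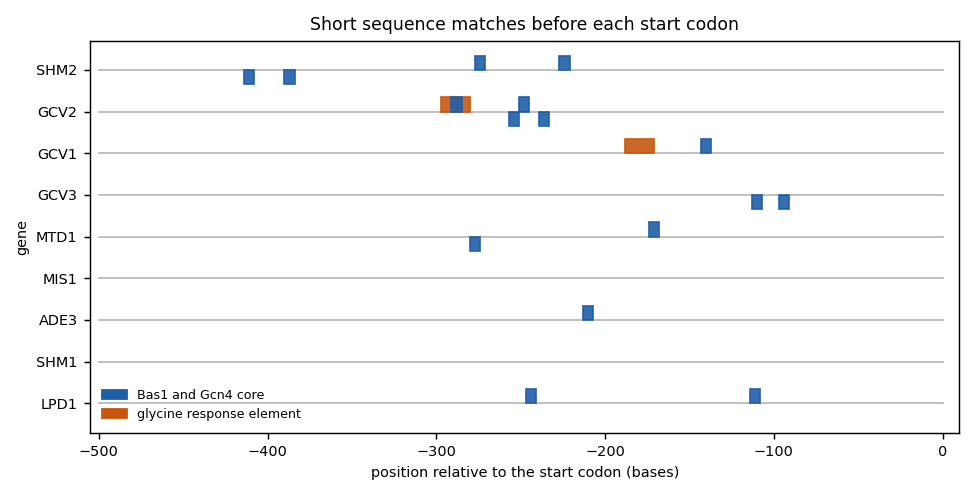
Positions of TGACTC (Bas1 and Gcn4 core) and of the glycine response element in the 500 bases before the start codon of each member, with the start codon at 0 and matches on the gene's own strand above the line and on the opposite strand below it. GCV2 and SHM2 carry several matches, and SHM1 and MIS1 carry none.

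Among the glycine cleavage subunits, GCV2 encodes the P subunit, the glycine decarboxylase itself (chrXIII:637500-640604, 1 coding exon of 3105 bases on the plus strand). Its normalized counts, which are gene counts divided by the authors' size factor for each library, were 768, 909 and 909 in control libraries 1, 2 and 3. They were 419, 363 and 382 in La EC10 libraries 13, 14 and 15, and 314, 302 and 341 in La EC50 libraries 10, 11 and 12. All La libraries were below all control libraries, and the La doses did not overlap either. In Yb EC10 libraries 7, 8 and 9 GCV2 stood at 631, 593 and 616 normalized counts, and in Yb EC50 libraries 4, 5 and 6 at 581, 552 and 597. The Yb libraries lay between control and La, with overlap between the Yb doses. As a difference of log2(normalized count + 1), with the standard error of a fit to all 15 libraries, GCV2 was -1.15 ± 0.08 at La EC10, -1.43 ± 0.08 at La EC50, -0.49 ± 0.08 at Yb EC10 and -0.58 ± 0.08 at Yb EC50 relative to control.

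GCV1 encodes the T subunit, the aminomethyltransferase that hands the one-carbon unit to tetrahydrofolate (chrIV:484163-485365, 1 coding exon on the minus strand). GCV1 stood at normalized counts of 805, 766 and 688 in the control libraries, 458, 380 and 422 at La EC10, 377, 306 and 322 at La EC50, 634, 530 and 610 at Yb EC10, and 633, 599 and 572 at Yb EC50, each in the library order given for GCV2. Every exposed library was below every control library, the La groups were below the Yb groups, and the Yb doses overlapped. Relative to control, GCV1 had log2 differences of -0.84, -1.17, -0.35 and -0.32 (SE 0.10) in the order La EC10, La EC50, Yb EC10 and Yb EC50. At Yb EC50 its call was lost without control library 1, without Yb EC50 library 6 and with equal totals, where the log2 difference was -0.29 to -0.19. At Yb EC10 the call was lost with equal totals, at -0.28.

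GCV3 encodes the H subunit, the small lipoate-bearing carrier protein of the complex (chrI:57950-58462, 1 coding exon on the minus strand). In normalized counts, GCV3 stood at 1204, 1016 and 1012 in the control libraries, 718, 713 and 648 at La EC10, 626, 595 and 667 at La EC50, 964, 892 and 963 at Yb EC10, and 879, 817 and 823 at Yb EC50. All exposed libraries were below all control libraries, and the La doses overlapped. Relative to control, GCV3 had log2 differences of -0.63, -0.77, -0.19 and -0.36 (SE 0.08), and with equal totals the call at Yb EC50 was lost, at -0.22. The control spread of GCV3 came from library 1, which stood above libraries 2 and 3.

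LPD1 encodes the L subunit, dihydrolipoamide dehydrogenase, which also serves the pyruvate and alpha-ketoglutarate dehydrogenase complexes (chrVI:101628-103127, 1 coding exon on the minus strand). Normalized counts of LPD1 were 1507, 1524 and 1700 in the control libraries, 1688, 1757 and 1689 at La EC10, 1537, 1622 and 1580 at La EC50, 1729, 1731 and 1725 at Yb EC10, and 1879, 1799 and 1887 at Yb EC50. The Yb libraries were all above the control libraries, while both La groups overlapped them. La EC50 was below La EC10 without overlap, by a log2 difference of -0.12. The log2 differences from control were 0.12, 0.00, 0.13 and 0.24 (SE 0.06), so no exposed group had a mean below control, and the promoter of this subunit holds TGACTC. LPD1 was called higher also at La EC10 with equal totals or quantile normalization, at 0.17 to 0.19, and at Yb EC10 with equal totals or without control library 3, at 0.19 to 0.20.

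SHM2 encodes the cytosolic serine hydroxymethyltransferase, the most abundant member per coding length in control cells (chrXII:257992-259401, 1 coding exon on the minus strand). The normalized counts of SHM2 were 4496, 5013 and 4924 in the control libraries, 2174, 2159 and 2067 at La EC10, and 1582, 1528 and 1459 at La EC50. They were 3035, 3034 and 2923 at Yb EC10 and 3164, 3624 and 3350 at Yb EC50. No groups overlapped, and the order from high to low was control, Yb EC50, Yb EC10, La EC10 and La EC50. Relative to the control mean, SHM2 stood at 44.3% at La EC10, 31.7% at La EC50, 62.3% at Yb EC10 and 70.2% at Yb EC50. The log2 differences from control were -1.17, -1.66, -0.68 and -0.51 (SE 0.06), and La EC50 was lower than La EC10 by a log2 difference of -0.49.

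SHM1 encodes the mitochondrial serine hydroxymethyltransferase (chrII:736264-737736, 1 coding exon on the plus strand). Its normalized counts were 1320, 1507 and 1443 in the control libraries, 1274, 1433 and 1186 at La EC10, 1405, 1425 and 1340 at La EC50, 1288, 1334 and 1275 at Yb EC10, and 1175, 1340 and 1321 at Yb EC50. Every exposed group overlapped control. The log2 differences from control were -0.14, -0.03, -0.13 and -0.15 (SE 0.08), and the sign at La EC50 turned to 0.07 when libraries were scaled to equal totals. Without La EC10 library 14 the difference at La EC10 was -0.21 and called. SHM1 and SHM2 share 65.2% of aligned coding bases, with a longest identical run of 22 bases.

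The ratio of SHM2 to SHM1 within a library, as counts per coding length, was 3.53 ± 0.05 in control (SD, n = 3). It was 1.73 ± 0.13 at La EC10 and 1.14 ± 0.03 at La EC50, where the cytosolic transcript came close to the level of the mitochondrial one. At Yb EC10 the ratio was 2.41 ± 0.05 and at Yb EC50 2.76 ± 0.10. The 5 groups did not overlap in this ratio, and the lowest control value was 3.47. The ratio of GCV2 to LPD1, 2 subunits of 1 complex, was 0.264 ± 0.022 in control, 0.110 ± 0.010 at La EC10, 0.0977 ± 0.0073 at La EC50, 0.171 ± 0.005 at Yb EC10 and 0.150 ± 0.002 at Yb EC50. The exposed libraries all stood below control in that ratio too.

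**Figure D2:**
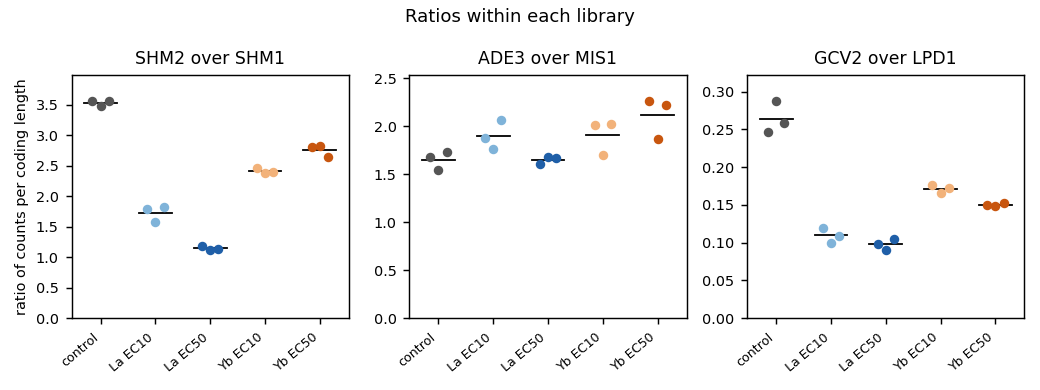
Ratio of normalized counts per coding length within each library for SHM2 over SHM1, ADE3 over MIS1 and GCV2 over LPD1, with 1 point per library and a bar at the mean of each group. SHM2 over SHM1 runs from 3.53 in control to 1.14 at La EC50. ADE3 over MIS1 lies between 1.54 and 2.27 in all libraries, with means of 1.65 in control, 1.90 at La EC10 and 2.12 at Yb EC50. At La EC10 and Yb EC50 it lies above control without overlap, and at La EC50 and Yb EC10 it overlaps control.

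MTD1 encodes the cytosolic NAD-dependent methylenetetrahydrofolate dehydrogenase (chrXI:590395-591357, 1 coding exon on the plus strand). In normalized counts, MTD1 stood at 734, 790 and 772 in the control libraries, 395, 443 and 437 at La EC10, 439, 391 and 429 at La EC50, 526, 458 and 479 at Yb EC10, and 550, 679 and 583 at Yb EC50. All exposed libraries were below all control libraries, the La doses overlapped, and the higher Yb dose lay above the lower without overlap. Relative to control, MTD1 had log2 differences of -0.85, -0.87, -0.65 and -0.35 (SE 0.08), and with equal totals the call at Yb EC50 was lost, at -0.21.

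ADE3 encodes the cytosolic trifunctional synthase that makes formyl- and methylene-tetrahydrofolate (chrVII:905934-908774, 1 coding exon on the plus strand). Its normalized counts were 2123, 2320 and 2576 in the control libraries, 1943, 1962 and 2038 at La EC10, 1767, 1952 and 1808 at La EC50, 2008, 1976 and 2003 at Yb EC10, and 2124, 2098 and 2346 at Yb EC50. The La groups and Yb EC10 lay below control without overlap, and Yb EC50 overlapped control. The log2 differences from control were -0.24, -0.34, -0.23 and -0.09 (SE 0.07), and the sign at Yb EC50 turned to 0.04 with equal totals. The calls of ADE3 were the least stable: at La EC10 the call was lost without control library 2, control library 3, La EC10 library 13 or La EC10 library 15, and at Yb EC10 without control library 2, control library 3 or any of the Yb EC10 libraries. Both calls were also lost with equal totals and in a fit of the 2 groups alone, and that at La EC10 with quantile normalization. Over these settings, the log2 difference was -0.26 to -0.16 at La EC10 and -0.23 to -0.15 at Yb EC10.

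MIS1 encodes the mitochondrial counterpart of ADE3 (chrII:411054-413981, 1 coding exon on the plus strand). Normalized counts of MIS1 were 1300, 1553 and 1535 in the control libraries, 1067, 1146 and 1015 at La EC10, 1136, 1198 and 1118 at La EC50, 1029, 1201 and 1019 at Yb EC10, and 966, 1159 and 1087 at Yb EC50. Every exposed library was below every control library, and the exposed groups overlapped among themselves. Relative to control, MIS1 had log2 differences of -0.44, -0.34, -0.43 and -0.45 (SE 0.09), and without control library 2 the difference at La EC50 was -0.30 and no longer called. ADE3 and MIS1 share 68.3% of aligned coding bases, with a longest identical run of 20 bases, and no annotated gene overlaps any of the 9 members.

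**Figure D3:**
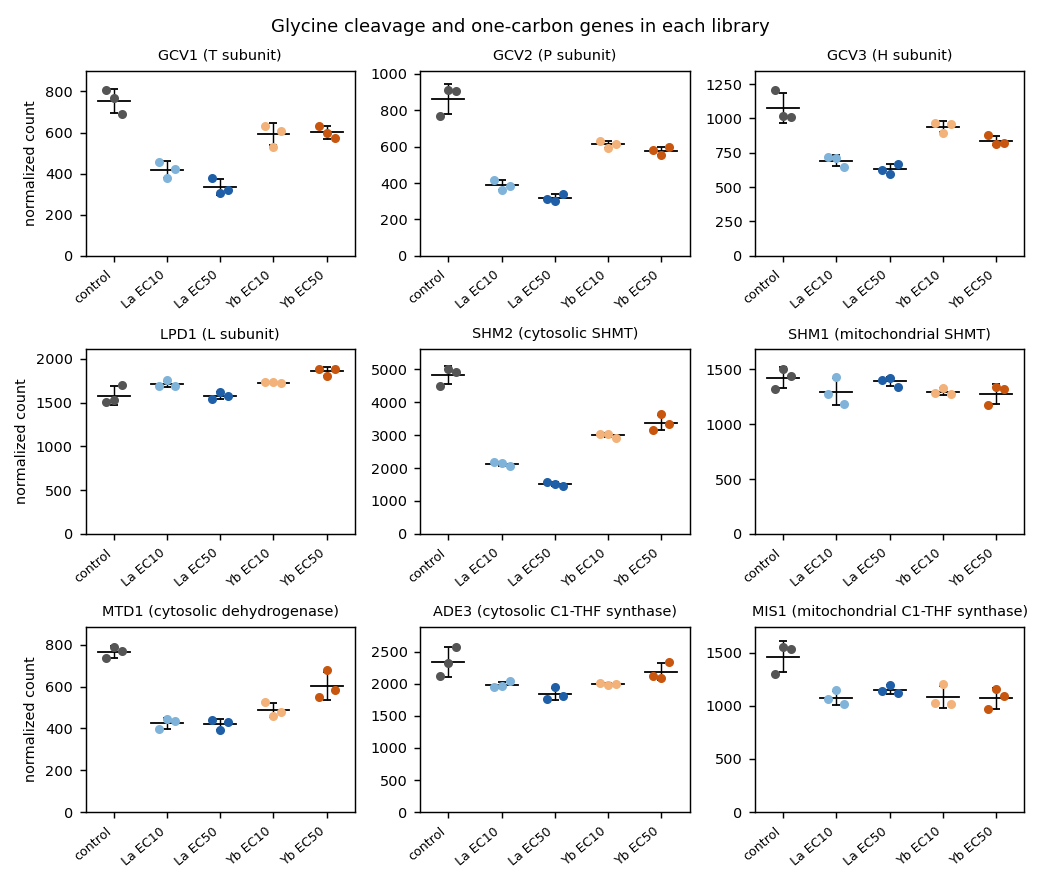
Normalized counts of the 9 members in each of the 15 libraries, with 1 point per library, a bar at the group mean and whiskers of 1 SD (n = 3), on axes that start at 0. GCV1, GCV2, GCV3, SHM2 and MTD1 lie lowest in the La groups, while SHM1 and LPD1 do not.

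Counted over the list, 7 of the 9 members were called lower at La EC10 in limma at a Benjamini-Hochberg adjusted p under 0.05 over all genes tested, where 10.1% of all genes tested were called lower. At La EC50 the count was 7, where 13% of genes were called lower, and the members not called at either dose were SHM1 and LPD1. At Yb EC10, 6 members were called lower (14% of genes), and SHM1, LPD1 and GCV3 were not called. At Yb EC50, 6 were called lower (20.2% of genes), SHM1 and ADE3 were not called, and LPD1 was called higher (20.6% of genes). The median log2 difference of the 9 members was -0.63 at La EC10, -0.77 at La EC50, -0.35 at Yb EC10 and -0.35 at Yb EC50, beside 0.01, 0.01, 0.00 and -0.02 over all genes tested. Since the list was drawn up from these contrasts, nothing is read from the gap between those counts and those shares. Scaling to equal totals shifted the all-gene median from 0.01 to 0.11 at La EC50 and from -0.02 to 0.11 at Yb EC50, and the share of calls that were higher from 49.3% to 74.2% and from 50.5% to 78.8%. In bulk RNA, fewer cells that express a gene and less of its RNA per cell cannot be told apart.

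**Figure D4:**
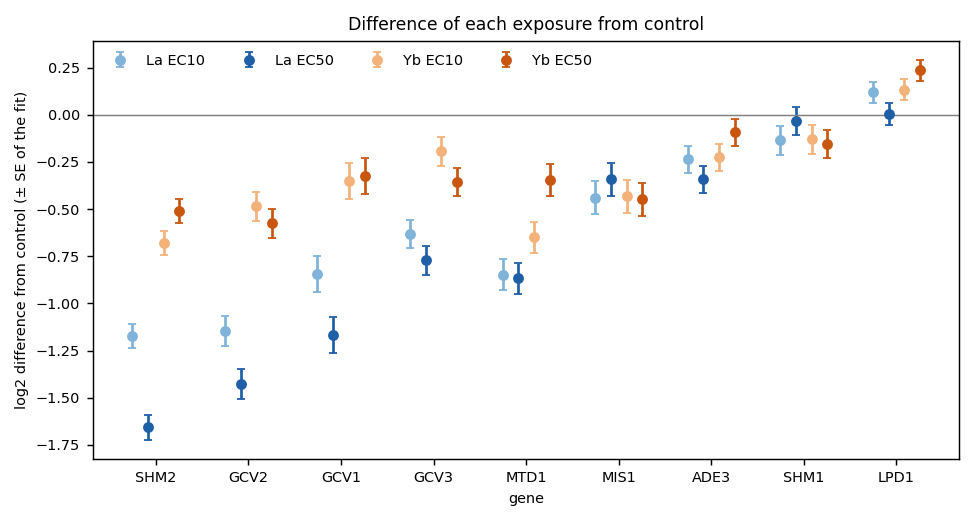
Difference of each exposed group from control for each member, as log2(normalized count + 1), with 1 point per group and whiskers of 1 SE of the fit. The largest differences are those of SHM2 and GCV2 at La EC50 (-1.66 and -1.43), followed by SHM2 at La EC10 and GCV1 at La EC50 (-1.17 each).

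Between the La doses, SHM2 was the 1 member called, lower at EC50, where 0.79% of genes were called lower. GCV1, GCV2 and LPD1, with log2 differences of -0.33, -0.28 and -0.12, were not called in the fit of all 15 libraries. Their values at the 2 La doses did not overlap, but the share of all genes that separate this way was not counted. GCV2 was called when control library 1 was left out. Between the Yb doses, 0 members were called in limma (1.1% of genes in either direction). An unadjusted p under 0.05 in limma was held by 3 members and by 1078 of the 5567 genes tested. With edgeR 0 members and 176 genes were called, and with DESeq2 1 member and 308 genes. That member was MTD1, whose log2 difference of 0.30 was also called without Yb EC10 library 7 and with equal totals, at 0.31 to 0.37 over those settings. At EC10, La was lower than Yb for 4 members, SHM2, GCV1, GCV2 and GCV3 (4.19% of genes, with 1.71% higher), with log2 differences of -0.49, -0.49, -0.66 and -0.44. At EC50, La was lower than Yb for 7 members (11.2% of genes, with 10.8% higher), which were those 4 with LPD1, MTD1 and ADE3, and the difference of SHM2 was -1.15. The call of ADE3 there was lost without La EC50 library 10, La EC50 library 12 or Yb EC50 library 6, with log2 differences of -0.24 to -0.20. The contrasts with control share the same 3 control libraries, so the values of the groups are set side by side and not correlated.

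As levels per 1000 bases of coding length, the members of control cells ran from 3412 ± 196 normalized counts for SHM2 to 278 ± 26 for GCV2 (SD, n = 3). GCV3 came next after SHM2 at 2100 ± 214, and LPD1, SHM1, ADE3 and MTD1, between 1051 and 795, overlapped their neighbours in that order. At La EC50 the first place was held by GCV3 at 1226 ± 70, and SHM2 followed at 1080 ± 43, overlapping LPD1 at 1053 ± 29. SHM2 remained first in the other 3 exposed groups. Summed over the 9 members, normalized counts made up 0.212% to 0.226% of a control library, 0.153% to 0.159% with La EC10, 0.140% to 0.148% with La EC50, 0.175% to 0.191% with Yb EC10, and 0.198% to 0.202% with Yb EC50.

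The genes whose profiles over the 15 libraries were most like that of SHM2 were sought among 5208 genes that are not members. These averaged 50 or more normalized counts, and likeness was the root mean square difference of centred log2 values. The nearest was ADE17, an enzyme of purine synthesis that uses formyl-tetrahydrofolate, at 0.12, followed by FAR1, an inhibitor of the cell cycle in the pheromone response, at 0.17, and MAE1, the mitochondrial malic enzyme, at 0.21. ALD5, an aldehyde dehydrogenase of mitochondria, stood at 0.23 and AGA1, the anchor of a-agglutinin, at 0.24, where a flat profile stood at 0.57. For GCV2 the nearest were FAR1 at 0.16, DIC1, the mitochondrial dicarboxylate carrier, at 0.17, BAR1, the protease that cleaves alpha-factor, at 0.18, AGA1 at 0.18 and FUS1, a cell fusion protein, at 0.20, with a flat profile at 0.51. For the mean of the 9 members they were ADE13 at 0.08, ADE12 at 0.09, HIS4 of histidine synthesis at 0.09, SER1 of serine synthesis at 0.09 and AMN1, an antagonist of mitotic exit, at 0.09, with a flat profile at 0.26. Between members, the same measure was 0.14 for SHM2 and GCV2, 0.16 for GCV1 and GCV2, and 0.20 for GCV1 and SHM2.

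For the neighbouring lists, fell and rose stand for called lower and called higher in limma at an adjusted p under 0.05. Of 7 other genes of purine synthesis, all fell at both La doses, 6 fell at Yb EC10 and 4 at Yb EC50. Of all genes tested, 10.1% were called lower at La EC10, 13% at La EC50, 14% at Yb EC10 and 20.2% at Yb EC50. The shares of all genes tested that were called higher, not yet given, were 10.2% at La EC10, 12.6% at La EC50 and 15.2% at Yb EC10. The median log2 change of the purine list was -0.61 at La EC10, -0.63 at La EC50, -0.35 at Yb EC10 and -0.24 at Yb EC50. ADE12, adenylosuccinate synthase, changed from 1856 ± 106 normalized counts in control to 1113 ± 74 at La EC10 and 1005 ± 68 at La EC50 (SD, n = 3), a log2 change of -0.89 ± 0.07 (SE, limma adjusted p = 3.2e-07) at the higher dose. ADE1, which joins aspartate to the purine precursor, fell by 0.76 on the log2 scale at La EC50 (limma adjusted p = 6.24e-07), and at Yb EC50 its change was -0.12 (limma adjusted p = 0.156). ADE6 of the early pathway fell at La EC50 by 0.70 and at Yb EC50 by 0.41 (limma adjusted p = 8.21e-06 and 0.000776). ADE13, adenylosuccinate lyase, fell at La EC50 by 0.63 (limma adjusted p = 8.77e-06), and at Yb EC50 its change was -0.16 (limma adjusted p = 0.0743, and 0.0426 without Yb EC50 library 5). With equal totals the change of ADE12 at Yb EC50 was -0.17 and no longer called (limma adjusted p = 0.0742).

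Of 11 genes that use one-carbon units, 5 fell at La EC10, 4 at La EC50, 4 at Yb EC10 and 4 at Yb EC50, where 1 rose. Of all genes tested, 10.1%, 13%, 14% and 20.2% fell in these groups, and 20.6% rose at Yb EC50. The median log2 change of that list was 0.03, -0.14, -0.04 and -0.01 in the same order. ADE17 fell from 1393 ± 26 normalized counts in control to 590 ± 16 at La EC10 and 405 ± 13 at La EC50 (log2 change -1.78 ± 0.07, limma adjusted p = 6.76e-11), and stood at 927 ± 71 and 1076 ± 103 at the Yb doses. MET6, the methionine synthase that takes its methyl group from a folate, fell from 11453 ± 1026 to 5674 ± 197 at La EC50 (log2 change -1.01 ± 0.09, limma adjusted p = 3.62e-07). At Yb EC50 MET6 fell by 0.47 (limma adjusted p = 0.000562), and with quantile normalization its change was -0.13 and not called (limma adjusted p = 0.145). ADE16, which shares 74.8% of aligned coding bases with ADE17, did not fall. Its La EC10 and Yb EC50 libraries lay above all control libraries, and its La EC50 and Yb EC10 libraries overlapped control. ADE16 stood at 1859 ± 126 normalized counts in control. It stood at 2084 ± 51 at La EC10, 1950 ± 121 at La EC50, 2010 ± 102 at Yb EC10 and 2157 ± 130 at Yb EC50 (SD, n = 3). ADE8, another formyl-folate enzyme of purine synthesis, fell by 0.39 at La EC50 and by 0.34 at Yb EC50 (limma adjusted p = 0.00219 and 0.00307), and its calls at the lower doses rested on single libraries. At La EC10 the call was lost without control library 2 or La EC10 library 13 (limma adjusted p up to 0.0892), and at Yb EC10 without control library 1 or 2 or Yb EC10 library 7 or 9 (limma adjusted p up to 0.14). SAM1, an S-adenosylmethionine synthetase, fell by 0.53 at La EC50 (limma adjusted p = 0.00124). It shares 83.2% of aligned coding bases and a run of 59 bases with SAM2, so its counts may be uncertain, which was not tested.

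Of 8 genes of serine and glycine supply, 4 fell and 1 rose at La EC10, 5 fell and 2 rose at La EC50, 4 fell and 3 rose at Yb EC10, and 3 fell and 3 rose at Yb EC50. Of all genes tested, 10.1%, 13%, 14% and 20.2% fell and 10.2%, 12.6%, 15.2% and 20.6% rose in these groups. The median log2 change of the 8 genes was -0.19, -0.31, -0.18 and -0.15 in the same order. CHA1, the serine and threonine deaminase that lets cells use these amino acids as nitrogen source, had the largest change of the list. It stood at 425 ± 18 normalized counts in control, 105 ± 3 at La EC10, 107 ± 9 at La EC50, 228 ± 11 at Yb EC10 and 215 ± 63 at Yb EC50 (SD, n = 3), and its log2 change at La EC50 was -1.99 ± 0.15 (limma adjusted p = 1e-07). SER3, phosphoglycerate dehydrogenase at the start of serine synthesis, rose from 776 ± 40 to 1401 ± 160 at La EC10, 1219 ± 2 at La EC50 and 1245 ± 63 at Yb EC50 (log2 change 0.68 ± 0.08, limma adjusted p = 7.51e-06, at the last). It shares a run of 56 identical bases with SER33, so its counts may be uncertain, which was not tested. SER1, phosphoserine aminotransferase, fell by 0.56 at La EC50 and by 0.33 at Yb EC50 (limma adjusted p = 6.5e-06 and 0.000574). AGX1, which makes glycine from glyoxylate, rose at Yb EC50 by 0.95 ± 0.19 (limma adjusted p = 0.00148), from 48.4 ± 8.2 to 94.0 ± 11.3 normalized counts. At La EC50 its change was 0.21 (limma adjusted p = 0.45), and its call at Yb EC10 was lost without control library 3 or Yb EC10 library 9 (limma adjusted p up to 0.0822). With quantile normalization the change of AGX1 at Yb EC10 was 0.38 and not called (limma adjusted p = 0.107).

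Of 9 genes of folate synthesis, 2 fell and 1 rose at La EC50, 1 fell at Yb EC10 and 2 fell at Yb EC50. Of all genes tested, 13% fell and 12.6% rose at La EC50, 14% fell at Yb EC10 and 20.2% fell at Yb EC50, so the Yb counts of this list were near those of all genes. At La EC10, 0 were called in limma, edgeR or DESeq2. An unadjusted p under 0.05 was held by 4 in limma, 4 in edgeR and 1 in DESeq2. In limma, 1926 of the 5567 genes tested held one there. The median log2 change of the folate list was 0.04 at La EC10, -0.01 at La EC50, -0.12 at Yb EC10 and -0.07 at Yb EC50. DFR1, dihydrofolate reductase, fell by 0.42 at La EC50 (limma adjusted p = 0.00671), and FOL1, a multifunctional enzyme of folate synthesis, fell by 0.34 at Yb EC10 (limma adjusted p = 0.000866). FOL1 also fell at Yb EC50 by 0.26 (limma adjusted p = 0.00342), and with equal totals its change was -0.13 and not called (limma adjusted p = 0.147). The calls of FOL2, GTP cyclohydrolase, and ABZ2, of para-aminobenzoate synthesis, at La EC50 rested on single libraries. That of FOL2 was lost without control library 1 or 3 or La EC50 library 10 or 11 (limma adjusted p up to 0.134), and that of ABZ2 without control library 2 or La EC50 library 10 or 12 (limma adjusted p up to 0.13). The call of FOL2 at Yb EC50 was lost without control library 1 or 3 or Yb EC50 library 4 or 5 (limma adjusted p up to 0.102). Both calls of FOL2 were also lost in a fit of the 2 groups alone and with equal totals, where the change was -0.08 at La EC50 and -0.04 at Yb EC50 (limma adjusted p = 0.321 and 0.638), and that of ABZ2 with the 2 groups alone and with DESeq2.

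Of 9 genes for lipoate attachment and other lipoate enzymes, 1 rose at La EC10, 1 at Yb EC10 and 3 at Yb EC50, beside 10.2%, 15.2% and 20.6% of all genes tested. At La EC50, 0 were called by limma, edgeR or DESeq2, and 0 had an unadjusted p under 0.05 in limma, as 2104 of all 5567 genes did. The median log2 change of the lipoate list was 0.04, 0.06, 0.06 and 0.07 from La EC10 to Yb EC50. The genes that rose at Yb EC50 were LAT1, the acetyltransferase of pyruvate dehydrogenase, by 0.31, and KGD1 and KGD2 of alpha-ketoglutarate dehydrogenase, by 0.28 each (limma adjusted p = 0.00411, 0.00561 and 0.00234). The call of KGD2 at La EC10 was lost without control library 1 or La EC10 library 13 or 15 (limma adjusted p up to 0.0742). Its call at Yb EC10 was lost without control library 1 or Yb EC10 library 7 or 9 (limma adjusted p up to 0.0865). Of the regulators BAS1, PHO2 and GCN4, BAS1 alone was called, with a log2 change of -0.50 ± 0.12 at La EC50 (limma adjusted p = 0.00816) and -0.47 ± 0.12 at Yb EC10 (limma adjusted p = 0.0105). Among all genes tested, 13% were called lower at La EC50 and 14% at Yb EC10. BAS1 stood at 502 ± 70 normalized counts in control, 356 ± 56 at La EC50 and 361 ± 34 at Yb EC10 (SD, n = 3), and the call at Yb EC10 was lost without control library 2 or Yb EC10 library 9 (limma adjusted p up to 0.057). These lists were chosen with earlier results of these data known, and no list was tested as a set.

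**Figure D5:**
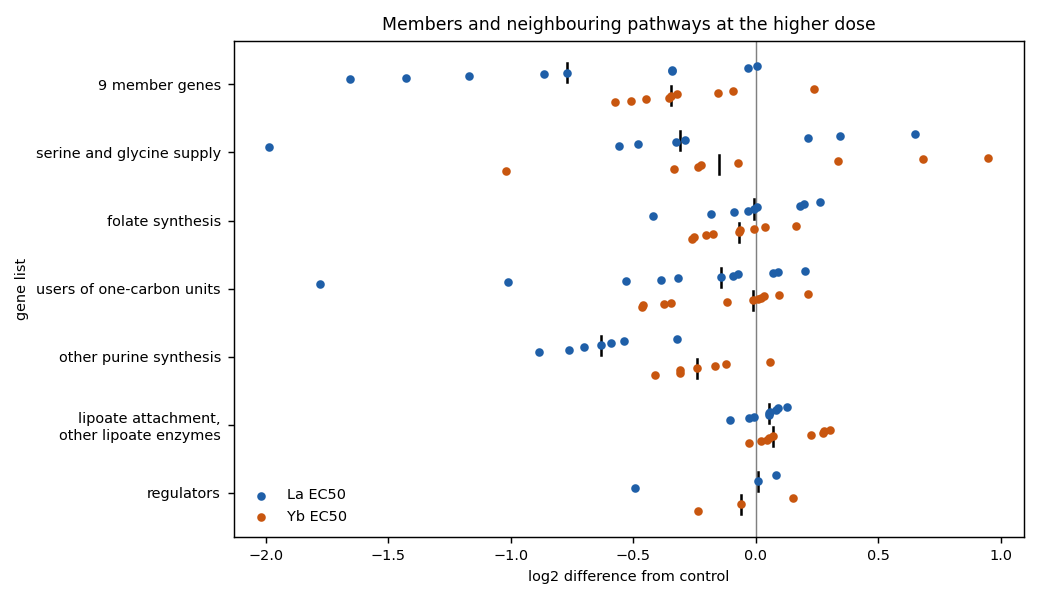
Log2 difference from control at La EC50 and Yb EC50 for each gene of the 9 members and of the 6 neighbouring lists, with 1 point per gene and a black bar at the median of each list. The purine synthesis genes lie below 0 at La EC50, the lipoate genes lie near 0, and the serine and glycine supply genes lie on both sides.

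Among tested genes that are not members, 449 held TGACTC between 250 bases before and 50 bases after the start codon and 5029 did not. At La EC50, 16.7% of the genes with it and 12.7% of those without it were called lower, and at La EC10 14.3% and 9.74%. At Yb EC10 the shares were 14.92% and 14.04%, and at Yb EC50 21.8% and 20.2%. From La EC10 to Yb EC50, 9.35%, 11.14%, 14.48% and 20.04% of the genes with TGACTC were called higher. Of the genes without it, 10.44%, 12.91%, 15.49% and 20.96% were called higher, in the same order. The median log2 difference of the genes with TGACTC at La EC50 was -0.01. In this shorter window, 28 genes that are not members held TGACTC more than once. Of these 28, 21.4% were called lower at each La dose and 17.9% at each Yb dose. From La EC10 to Yb EC50, 10.7%, 17.9%, 21.4% and 25% of the 28 were called higher. Their median log2 difference was 0.04 at each La dose. In the window of 500 bases, chosen after seeing the data, 78 genes that are not members held TGACTC more than once and 4768 did not hold it. Of the former, 25.6% were called lower at La EC10, 20.5% at La EC50, 25.6% at Yb EC10 and 25.6% at Yb EC50, beside 9.61%, 12.6%, 13.9% and 20.1% of the latter. Called higher were 7.69%, 7.69%, 14.1% and 16.7% of the former and 10.5%, 13.1%, 15.8% and 21.2% of the latter, in the same order. These shares were not tested.

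Over the whole series, the recovered totals ran from 5629666 to 7183175 reads per library. The a-type genes MFA1, MFA2, STE2 and BAR1 summed to 13675 to 15808 normalized counts in control, 7898 to 8038 with La EC10, 8372 to 8959 with La EC50, 10567 to 12190 with Yb EC10, and 9500 to 11032 with Yb EC50, so both La groups lay below both Yb groups and these below control. The genes URA3, LEU2 and MET17, deleted in this strain, summed to between 0 and 0.953, the worth of 1 read. General stress genes (HSP12, HSP26, CTT1, DDR2, TPS1, GSY1, HXK1 and SSA4) also differed between groups: their sum was 3062 to 4108 in control, 4283 to 6058 with La EC10, 3750 to 4007 with La EC50, 6388 to 12980 with Yb EC10, and 13861 to 19556 with Yb EC50. Of the 8, 3 were called higher at La EC10, 2 higher and 2 lower at La EC50, and 6 higher at each Yb dose. Among all genes tested, 10.2%, 12.6%, 15.2% and 20.6% were called higher from La EC10 to Yb EC50, and 13% lower at La EC50. Along the first principal component, which held 46.0% of the variance, Yb EC10 library 8 stood at 2.09, apart from its partners at 15.6 and 10.4. Without that library, 5 members in place of 6 were called lower at Yb EC10, and ADE3 was the one lost. The part of the a-type and stress genes in the member values was not tested.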

How the data were processed

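RNA of 15 yeast libraries in 5 groups was measured by strand-specific sequencing, per the labels' protocols. The deposited signal of each gene is its read count divided by 1 size factor per library, made by the authors. The submitters' processing notes name TopHat2 2.1.1, HTSeq 0.6.1p1, DESeq2 1.14.1, FastQC 0.67 and the R64 build. What each was used for, and whether reads were counted by strand, is not given in the sources used here. The 5 deposited columns of group means equal the library means and were left out.

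Values of every library came out as whole reads (100.0% within 0.01). Genes averaging 10 or more normalized counts were fitted as log2(normalized count + 1) in limma 3.58.1 (R 4.3.3), with a mean-variance trend, in 1 fit of 15 libraries, with 2-sided contrasts for 8 comparisons and Benjamini-Hochberg adjustment over 5567 genes. This scale understates changes of low genes. The F test over the 5 groups called 2402 genes. On the recovered reads, edgeR 4.0.16 called 1152 genes at La EC10, 1437 at La EC50, 1603 at Yb EC10 and 2306 at Yb EC50 against control, where limma called 1131, 1425, 1629 and 2274; DESeq2 1.42.0 was a further alternative. An exact permutation test of 3 against 3 cannot give a p below 0.1. The fit was tested on simulated data.

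Replicate pairs differed by more than sampling noise (chi-square per degree of freedom 2.97 to 28.0), so none was merged. A count of 0 reads allows up to 3 reads, which is 2.70 to 3.67 normalized counts, and this covers counting error only. The members and all lists were chosen with earlier results of these data known. Beside the members, up to 4 genes per list with the largest change among those called at La EC50 or Yb EC50 are named, and the 5 genes nearest to a profile. ADE16 is given in addition, next to ADE17. Annotation and promoters are RefSeq's for build R64 (5917 of 6600 identifiers matched), with 1-based coordinates. The series description speaks of retinal profiles, and the labels, which give yeast cells, were followed.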

Additional observations from a re-analysis of the deposited data

Results flagged for a closer look

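The values below were singled out because the difference between La and Yb at the same effect level was itself called in limma over all genes tested. They are log2 differences, La minus Yb, with 3 libraries a group, and for the 9 members they are a description, since the list was drawn up with these levels known. The doses differ in concentration.

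At EC10, SHM2 stood at -0.49, GCV1 at -0.49, GCV2 at -0.66 and GCV3 at -0.44. Of the neighbouring genes, CHA1 stood at -1.12, ADE17 at -0.65, ADE1 at -0.31, MET6 at -0.30 and ADE12 at -0.27, and SER3 was higher with La at 0.48. The calls of MET6 and ADE12 were lost without any 1 of 12 and any 1 of 9 of the 15 libraries (limma adjusted p up to 0.2 and 0.171 over the settings that ended them), and that of ADE1 without La EC10 library 13 or in a fit of the 2 groups alone (limma adjusted p up to 0.0932).

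At EC50, SHM2 stood at -1.15, GCV1 at -0.85, GCV2 at -0.85, MTD1 at -0.52, GCV3 at -0.42, ADE3 at -0.25 and LPD1 at -0.23. LPD1 was higher than control with Yb, and the others were lower than control with La. Among users of one-carbon units, ADE17 stood at -1.40 and MET6 at -0.54. In purine synthesis, ADE1 stood at -0.64, ADE12 at -0.58, ADE13 at -0.47 and ADE6 at -0.29. In serine and glycine supply, CHA1 stood at -0.97, AGX1 at -0.74 and SER1 at -0.22. The lipoate enzymes LAT1, KGD1 and KGD2 stood at -0.31, -0.22 and -0.22. In folate synthesis FOL1 and ABZ2 were higher with La, at 0.23 and 0.25.

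The EC50 calls of SER1, ADE6, KGD1 and KGD2 were lost without at least 3 single libraries each, La EC50 library 10 or 12 and Yb EC50 library 6 among them (limma adjusted p up to 0.113). Those of AGX1 and FOL1 were lost without Yb EC50 library 4 and, for FOL1, with equal totals (limma adjusted p = 0.062 and up to 0.0708). That of ADE3 was lost without La EC50 library 10 or 12 or Yb EC50 library 6, at -0.24 to -0.20. General stress genes also differed between the metals at EC50, where 8 of 8 were called lower with La (median log2 difference -1.71), beside 11.2% of all genes tested. The part of the stress genes in these values was not tested.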

How the results depend on the processing

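No called value turned its direction under the settings tried. With equal totals the members called at Yb EC50 against control went from 7 to 4, with GCV1, GCV3 and MTD1 lost, and between the Yb doses from 0 to 1, as with DESeq2. Leaving out 1 library at a time, members called against control numbered 6 to 8 with La EC10, 6 to 7 with La EC50, 5 to 6 with Yb EC10, and 6 to 7 with Yb EC50, 1 to 2 between the La doses, 0 to 1 between the Yb doses, 4 to 4 between the metals at EC10 and 6 to 7 at EC50. Of the 47 neighbouring genes, 14 to 20, 19 to 22, 13 to 20 and 16 to 22 were called in the 4 contrasts with control, from 18, 22, 20 and 20, and the 13 came without Yb EC10 library 9. Of 72 pairs of member and comparison, 13 had a call that changed under some setting. Over all genes, the count between the Yb doses was the least stable: 61, against 203 with equal totals, 142 with quantile normalization, 176 with edgeR, 308 with DESeq2, 19 with no filter, 5 with no trend, 0 with the 2 groups alone in limma (973 at an unadjusted p under 0.05), and 0 to 536 without 1 library. The 0 came without Yb EC10 library 8 or Yb EC50 library 5 (790 and 1034 at an unadjusted p under 0.05) and the 536 without Yb EC10 library 7. La against Yb at EC10 gave 328, or 142 with the 2 groups alone, and the La doses 99, or 169 with DESeq2 and 32 to 128 without 1 library. At La EC10 the count of 1131 became 577 without library 15, 618 without library 13, 639 without control library 2 and 707 without control library 3. At Yb EC10 1629 became 989 without library 9 and 1067 without control library 2, at Yb EC50 2274 became 1515 without library 4, and at EC50 between the metals 1224 became 789 without La EC50 library 12. The cause of these shifts was not tested. Where equal totals moved the split of calls, the share that were higher went from 50.3% to 71.2% with La EC10, from 52.0% to 70.1% with Yb EC10, and from 55.6% to 70.4% between the La doses. No paired analysis was possible because the columns carry a running number and not the replicate number of the labels. The lowest value of a member in any library was 302 normalized counts, so no member was near the limit that a count of 0 allows.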
